A study of Mus musculus with 20 samples.

Results

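The comparison described here is the change that loss of Rheb makes in the response of regulatory T cells (Tregs) to stimulation. For each gene it is the stimulated minus unstimulated difference in Rheb1/2 KO Tregs minus the same difference in wild-type (WT) Tregs, called the difference of responses below. It uses 12 of the 20 arrays of the series and all 19505 genes with a named probe set. The cells were CD4+CD25+ Tregs of C57BL/6 mice, enriched with CD4 beads and sorted, and their RNA was hybridised to Clariom S mouse arrays. The 4 groups were WT unstimulated, WT stimulated, Rheb1/2 KO unstimulated and Rheb1/2 KO stimulated, with 3 arrays each. The other 8 arrays form a second experiment on RagAB KO Tregs and their own WT Tregs, with 2 arrays per group and 8 hours of stimulation. The sources used here do not give the stimulus, its duration in the Rheb experiment, the driver of the deletion or the age of the mice. Nor do the labels state whether the replicates were different mice, and the p-values therefore describe the spread among these arrays, which may be technical.

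Tregs are CD4 T cells that restrain immune responses, and they depend on the transcription factor Foxp3. Rheb is a small GTPase that, in its GTP-bound form, activates the kinase complex mTORC1 at the lysosome, and the TSC complex switches it off. Rag GTPases bring mTORC1 to the lysosome when amino acids are present. In T cells, mTORC1 is known to favour protein, lipid and nucleotide synthesis after activation.

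All values are log2 signals made by RMA, so a difference of 1.00 is a doubling. The array medians lay between 7.67 and 7.77, and the median of each array's negative control probe sets between 6.86 and 7.16. The 95th percentile of these controls lay between 9.95 and 10.21, and 2194 to 2914 genes per array were above it. A signal above the negative control median can thus still lie within the range of the negative controls. Replicates of a group correlated at 0.9878 to 0.9932 across genes. Rheb signal was 9.83, 9.34 and 10.14 in unstimulated WT, 10.52, 10.18 and 10.27 in stimulated WT, 8.81, 8.82 and 9.05 in unstimulated KO and 9.37, 9.47 and 9.33 in stimulated KO arrays. KO arrays were thus lower than WT arrays of the same state, by 0.88 without stimulation (adjusted p = 0.0413) and by 0.93 with it (adjusted p = 0.0278; limma). The difference of responses of Rheb itself was -0.05 ± 0.24 (SE, adjusted p = 0.993). Rhebl1, which encodes Rheb2, lay between 4.99 and 6.10 on all 12 arrays, below the negative control median of each. The Treg and T cell genes Cd3e, Cd4, Ctla4 and Ikzf2 were bright in all groups, whereas Foxp3 was not analysed here. Il2ra, which encodes the CD25 used in the sort, was dim, with group means between 7.05 and 7.90, and 2 of the unstimulated KO arrays were at 6.65 and 6.91. The treatment field of 6 arrays, in 2 of the groups, names the other state than the title. Groups follow the titles, and both the source names and the design text give the same state as the titles.

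The sequences shown first belong to the gene list with the highest median difference of responses, the GTPases induced by interferon gamma and related genes. GAS and ISRE are short DNA motifs known from the promoters of interferon-induced genes. The stretches are the 250 bases before a gene's start in RefSeq (mouse build GRCm38.p6), read on the gene's strand. Capitals mark matches to an ISRE (GAAA, any 2 bases, then GAAA, on either strand) or a GAS motif (TTCNNNGAA, its own reverse complement), and neighbouring ISRE matches can overlap. Gbp2 lies at chr3:142620413-142620662 (+), Gbp3 at chr3:142559794-142560043 (+), Igtp at chr11:58199306-58199555 (+) and Irgm1 at chr11:48871421-48871670 (-). Gbp3 has a second start, whose stretch at chr3:142560106-142560355 (+) holds neither motif and is not shown. In the counts below a gene has a match if the stretch of any of its starts does.
Gbp2: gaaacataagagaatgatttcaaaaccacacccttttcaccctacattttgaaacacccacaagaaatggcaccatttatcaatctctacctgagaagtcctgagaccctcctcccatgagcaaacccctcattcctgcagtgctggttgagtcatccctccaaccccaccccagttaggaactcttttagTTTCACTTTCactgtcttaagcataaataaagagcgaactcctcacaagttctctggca
Gbp3: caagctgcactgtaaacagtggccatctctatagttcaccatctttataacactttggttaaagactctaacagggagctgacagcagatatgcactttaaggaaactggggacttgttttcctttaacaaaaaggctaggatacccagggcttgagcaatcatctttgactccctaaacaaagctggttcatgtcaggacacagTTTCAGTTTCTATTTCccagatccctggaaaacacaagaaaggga
Igtp: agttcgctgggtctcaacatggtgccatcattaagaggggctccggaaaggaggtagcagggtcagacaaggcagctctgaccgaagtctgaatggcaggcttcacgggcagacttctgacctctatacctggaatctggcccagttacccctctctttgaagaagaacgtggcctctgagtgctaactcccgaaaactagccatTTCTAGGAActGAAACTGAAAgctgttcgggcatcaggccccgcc
Irgm1: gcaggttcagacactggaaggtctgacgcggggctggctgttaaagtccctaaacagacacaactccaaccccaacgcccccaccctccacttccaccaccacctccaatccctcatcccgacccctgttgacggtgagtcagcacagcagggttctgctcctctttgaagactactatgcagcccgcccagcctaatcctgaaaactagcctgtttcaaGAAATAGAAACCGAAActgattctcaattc
In Gbp2 the ISRE match ends 50 bases before the start, and in Igtp a GAS match lies just upstream of an ISRE match. Of the 14 genes of the list, 9 are in the RefSeq table. An ISRE match was found for 8 of these 9 (88.9%), against 936 of 27025 genes of the table (3.46%). GAS matches were found for 5 of 9 (55.6%) and for 8.13% of all genes. In the list of type I interferon response genes, 10 of 23 (43.5%) held an ISRE match and 5 of 23 (21.7%) a GAS match. Both lists hold genes known to be induced by interferons, so these shares describe the lists and not the difference of responses. Of the 12 named genes of lowest p in each direction, 9 were in the RefSeq table. Among those with a higher response in KO, 3 of 9 held an ISRE match, Gbp2 and Gbp3 included, and 0 of 9 a GAS match. Among those with a lower response, 0 of 9 held either. A match describes these letters only, and binding was not measured.

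The responses of both genotypes were broadly alike. Stimulation changed 1828 genes in WT Tregs (9.37% of 19505; 875 rose, 4.49%, and 953 fell, 4.89%) and 1901 genes in Rheb1/2 KO Tregs (9.75%; 888 rose, 4.55%, and 1013 fell, 5.19%) at adjusted p below 0.05 (limma, Benjamini-Hochberg). Of these, 1126 were called in both. Across genes, as a description, the 2 responses, which share no arrays, correlated with Pearson's r = 0.72 and Spearman's rho = 0.54. The difference of responses was called for 0 of 19505 genes (0.0%), and the lowest adjusted p was 0.0704, for Pik3ap1. Without adjustment, 1207 genes had p below 0.05 (6.19%), of which 499 had a higher response in KO (2.56%) and 708 a lower one (3.63%). When each array was centred on its median, that split was 595 higher and 548 lower. With a trended and robust variance prior 7 genes were called, namely Gbp2, Gbp3, Cd69 and the predicted gene Gm8369 with higher, and Pik3ap1, Fam110c and Tmem26 with lower responses in KO. The unadjusted 95% interval of a gene reached 0.39 log2 to either side in the median. Calls were adjusted over all 19505 genes, and the 55 genes beyond 1 log2 either way were not called. The absence of a call thus does not exclude differences of that size with 3 arrays a group.

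A second description uses the single arrays. Each genotype gives 9 stimulated minus unstimulated pairs, and the responses of a gene were said not to overlap when every KO pair lay beyond every WT pair. That held for 521 genes (2.67%), with 244 higher in KO (1.25%) and 277 lower (1.42%). Fold differences over 2, that is beyond 1 log2 either way, were seen in 55 genes, 24 higher and 31 lower. The genes with p below 0.05 fell into several kinds. Among the 499 with a higher response in KO, 116 had a larger upward response in KO, 111 a smaller downward one, and 272 had responses of opposite sign. Among the 708 with a lower response, 117 had a larger downward response, 93 a smaller upward one and 498 opposite signs.

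**Figure D1:**
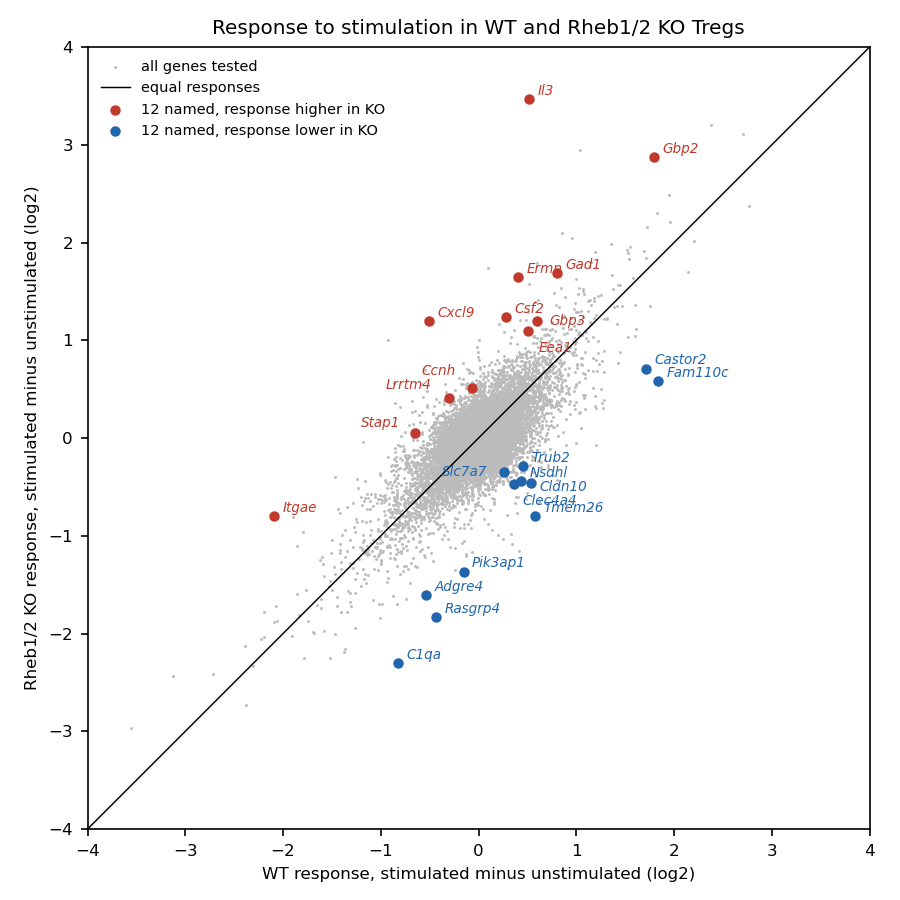
Stimulated minus unstimulated log2 signal of each of the 19505 genes (grey points) in WT (horizontal axis) and Rheb1/2 KO Tregs (vertical axis), with the line of equal responses. Red and blue points are the 12 named genes of lowest p on each side, chosen for this difference; Il3 lies farthest above the line and Fam110c and Castor2 lie to its right.

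Cytokine genes were among those with the largest values above 0. Il3 encodes a haematopoietic growth factor made by activated T cells. Its signal was 4.79, 4.47 and 4.06 in unstimulated WT, 5.01, 5.31 and 4.55 in stimulated WT, 4.47, 4.60 and 4.22 in unstimulated KO and 7.22, 8.96 and 7.52 in stimulated KO arrays. Only the stimulated KO arrays stood above the negative control median, so the other 9 values are at background. The stimulated KO values were still below the 95th percentile of the negative controls. The difference of responses was 2.95 ± 0.50 (SE; adjusted p = 0.21), and the rise in KO was called (3.47, adjusted p = 3.67e-05) while the WT value was 0.52 (adjusted p = 0.473). In a fit of all 20 arrays Il3 was the 1 gene called (adjusted p = 0.0477).

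Csf2, which encodes the myeloid growth factor GM-CSF, showed the same order at a smaller size. Signals were 6.94, 7.10 and 7.01 in unstimulated WT, 7.19, 7.38 and 7.31 in stimulated WT, 6.95, 6.73 and 6.69 in unstimulated KO and 7.97, 8.23 and 7.87 in stimulated KO arrays. The KO response was 1.23 (adjusted p = 1.91e-05) and the WT response 0.28 (adjusted p = 0.18), a difference of 0.96 ± 0.16 (adjusted p = 0.21). Stimulated KO arrays did not overlap with any other group. The unstimulated arrays of both genotypes lay near their negative control medians, so both responses are taken against background.

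Ifng, the interferon gamma gene, had values of 8.67, 8.37 and 8.91 in unstimulated WT, 8.46, 7.09 and 7.62 in stimulated WT, 7.83, 8.25 and 8.32 in unstimulated KO and 8.48, 9.80 and 9.12 in stimulated KO arrays. Neither response was called, at -0.92 in WT (adjusted p = 0.116) and 1.00 in KO (adjusted p = 0.085). Their signs were opposite, and the difference was 1.93 ± 0.48 (adjusted p = 0.536; limma). The stimulated arrays of the 2 genotypes just separated, since the lowest KO value (8.48) was next to the highest WT value (8.46).

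Il4, the type 2 cytokine gene, rose strongly in both genotypes. Signals were 7.47, 6.88 and 7.46 in unstimulated WT, 9.69, 9.53 and 9.74 in stimulated WT, 6.08, 5.85 and 5.94 in unstimulated KO and 9.38, 9.12 and 8.98 in stimulated KO arrays. All 3 unstimulated KO arrays lay below their negative control median, so values measured against them are taken against background. The rise was 2.38 in WT and 3.20 in KO, a difference of 0.82 ± 0.22 (adjusted p = 0.642). Here the genotypes differed at the start: unstimulated KO Tregs had 1.31 log2 less Il4 signal (difference -1.31, adjusted p = 0.00485), and stimulated KO Tregs differed by -0.49 (adjusted p = 0.288).

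Over the list of 27 cytokine genes, 6 had p below 0.05 with a higher response in KO and 1 with a lower one, the median was 0.09, and 18 lay above 0. Over all genes 2.56% and 3.63% passed in these directions and the median was -0.02. The other members past that threshold were Il21, the cytokine of follicular help (0.97 ± 0.42), Lif, an interleukin 6 family cytokine (0.44 ± 0.17), and Il17f, a type 17 cytokine (-0.56 ± 0.22). Il10, which encodes a suppressive cytokine, had a difference of 0.62 ± 0.29 (adjusted p = 0.821); its signal was lower in KO without stimulation (-1.36, adjusted p = 0.0113). When the variance was estimated from all 20 arrays, 3 cytokine genes had a higher response at p below 0.05.

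Chemokine ligand genes had differences of both signs. Ccl1, a ligand of Ccr8, had signals of 7.76, 8.06 and 7.62 in unstimulated WT, 9.24, 9.07 and 8.25 in stimulated WT, 7.23, 7.38 and 7.28 in unstimulated KO and 9.58, 11.08 and 10.06 in stimulated KO arrays. The stimulated KO arrays were above all others, with a rise of 2.94 in KO (adjusted p = 5.31e-05), a WT response of 1.04 (adjusted p = 0.0565) and a difference of 1.90 ± 0.45 (adjusted p = 0.461). Cxcl9, an interferon gamma induced ligand of Cxcr3, had 7.04, 6.75 and 6.49 in unstimulated WT, 6.40, 6.09 and 6.27 in stimulated WT, 6.83, 6.61 and 6.26 in unstimulated KO and 7.24, 8.38 and 7.65 in stimulated KO arrays. All but the stimulated KO arrays were near the level of the negative controls, and the difference was 1.70 ± 0.34 (adjusted p = 0.268).

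Ccl20, a ligand of Ccr6, went the other way. Its signal was 8.14, 8.10 and 8.06 in unstimulated WT, 9.06, 9.40 and 9.10 in stimulated WT, 7.86, 7.67 and 7.46 in unstimulated KO and 7.84, 8.05 and 7.98 in stimulated KO arrays. WT Tregs gained 1.09 (adjusted p = 0.000105), whereas the KO response was 0.29 (adjusted p = 0.181) and the difference -0.80 ± 0.17 (adjusted p = 0.363). Stimulated KO arrays did not reach the stimulated WT level on any array. Of 15 chemokine ligand genes, 3 had p below 0.05 with a higher response and 1 with a lower one, and the median was 0.06. Of 17 chemokine receptor genes, 2 had a higher and 2 a lower response at that threshold, among them Ccr8 (0.42 ± 0.18). Over all genes 2.56% passed it with a higher and 3.63% with a lower response.

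**Figure D2:**
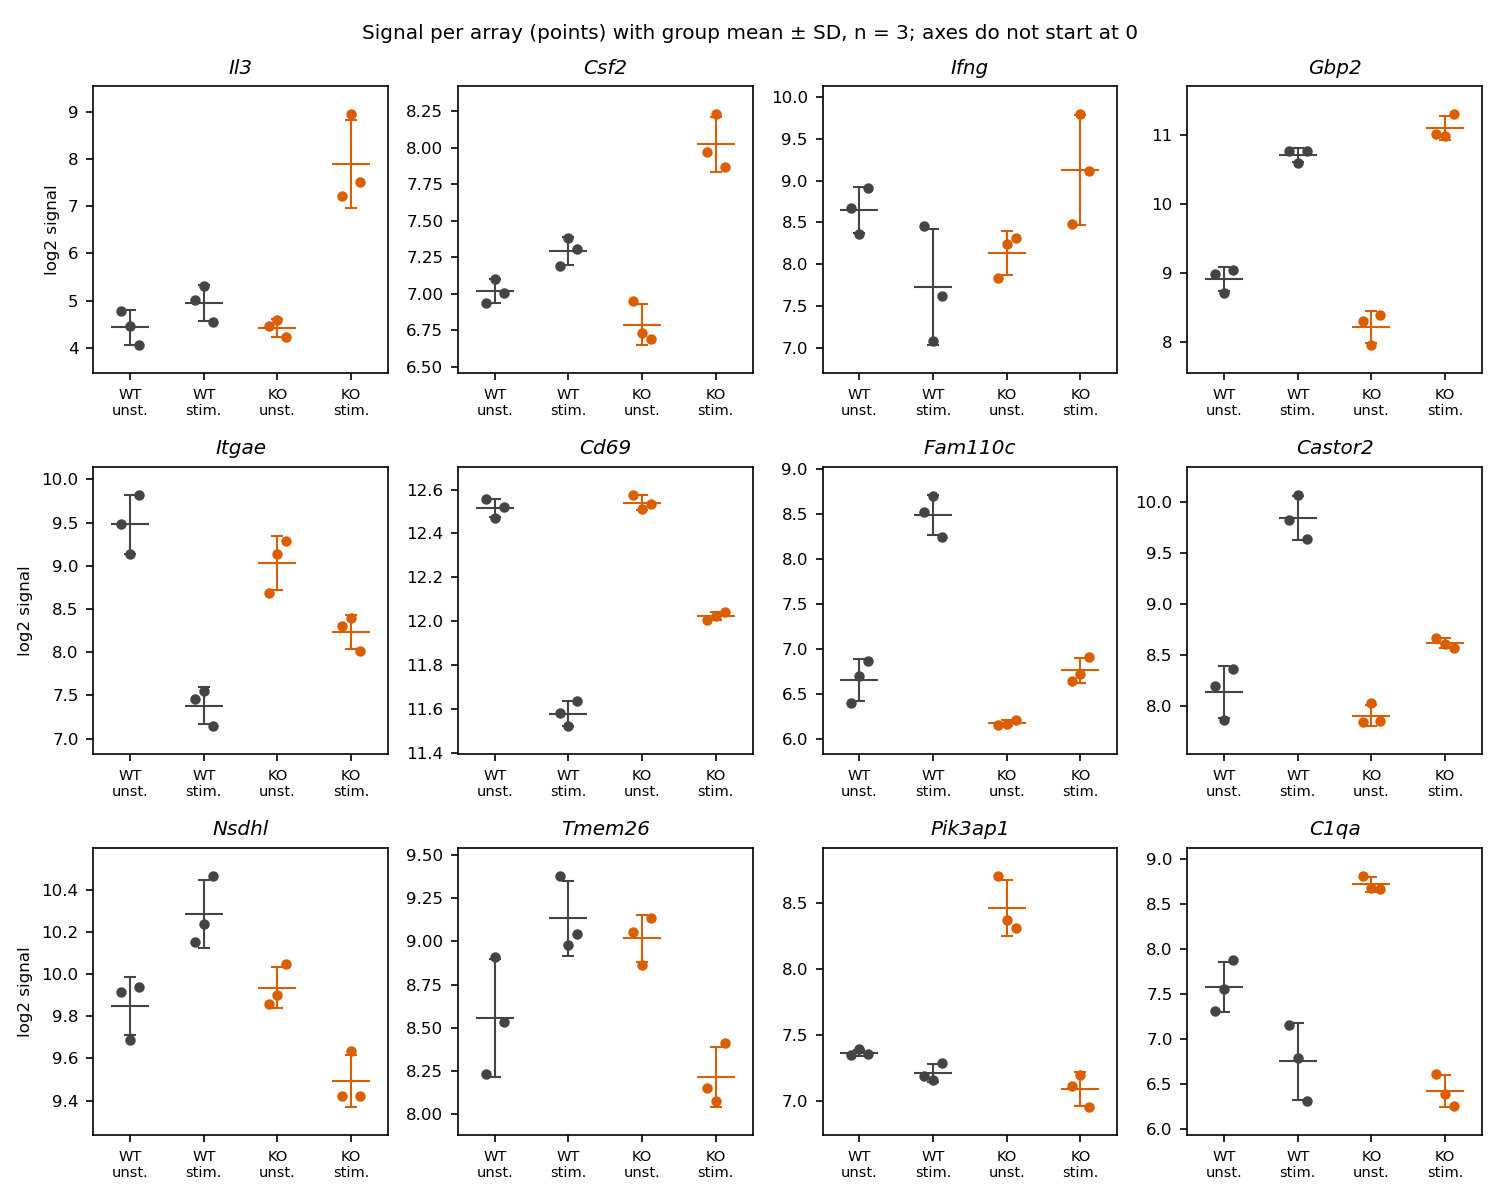
log2 signal of 12 genes on each of the 12 arrays (points), with the group mean and SD (n = 3), WT in grey and Rheb1/2 KO in orange; each panel has its own axis, which does not start at 0. In Il3 and Csf2 the stimulated KO arrays stand alone at the top, in Fam110c and Castor2 the stimulated WT arrays do, and in Pik3ap1 and C1qa the unstimulated KO arrays do.

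Interferon gamma induced GTPases and related genes formed the list with the highest median. All 14 measured members had a larger or less negative response in KO than in WT, against 45.0% of all genes above 0. Their median was 0.39, with values from 0.13 (Socs1, an inhibitor of cytokine signalling) to 1.08 (Gbp2). A p below 0.05 was reached by 9 of the 14 and non-overlapping responses by 7, where 2.56% and 1.25% of all genes did so in that direction. This list, like the others, was chosen with earlier results of these data known, so these shares are a description and not a test. The median response of the list was 0.60 in WT and 1.02 in KO. Over the alternative analyses, 13 or 14 members lay above 0, Socs1 being at -0.065 without 1 of the stimulated KO arrays, and between 3 and 11 had p below 0.05, the lowest count coming from the fit of all 20 arrays. Guanylate binding proteins are closely related in sequence, so probe sets of this family may read more than 1 member.

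Gbp2 encodes a guanylate binding protein that acts on pathogen-containing vacuoles. It had 8.99, 8.72 and 9.05 in unstimulated WT, 10.76, 10.60 and 10.78 in stimulated WT, 8.32, 7.96 and 8.40 in unstimulated KO and 11.01, 10.99 and 11.31 in stimulated KO arrays. KO arrays were the lowest group before stimulation and the highest after it. The rise was 1.79 in WT and 2.88 in KO, with a difference of 1.08 ± 0.20 (adjusted p = 0.243).

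In Gbp3 the genotypes met after stimulation. Its signals were 11.19, 11.22 and 11.38 in unstimulated WT, 11.87, 11.86 and 11.84 in stimulated WT, 10.70, 10.60 and 10.74 in unstimulated KO and 11.84, 11.84 and 11.96 in stimulated KO arrays. The difference of responses of 0.61 ± 0.13 (adjusted p = 0.304) went with a lower KO signal without stimulation (-0.58, adjusted p = 0.0125) and a difference of 0.03 with it (adjusted p = 0.978). Iigp1, an immunity-related GTPase, had the same order, with a mean of 9.84 ± 0.10 (SD, n = 3) in unstimulated WT, 11.78 ± 0.12 in stimulated WT, 9.30 ± 0.26 in unstimulated KO and 11.79 ± 0.10 in stimulated KO arrays. Its difference was 0.54 ± 0.18 (adjusted p = 0.703).

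The remaining members were Gbp9 (0.54), Igtp (0.45), Gbp7 (0.44), Gbp4 (0.40), Irgm1 (0.38), Irf1 (0.36), Gbp8 (0.34), Gvin1 (0.34), Tgtp2 (0.33) and Irgm2 (0.26). Igtp and the Irgm genes encode immunity-related GTPases, and Irf1 is a transcription factor that interferon gamma induces. Over the whole list the KO minus WT difference had a median of -0.11 without stimulation and 0.29 with it.

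**Figure D3:**
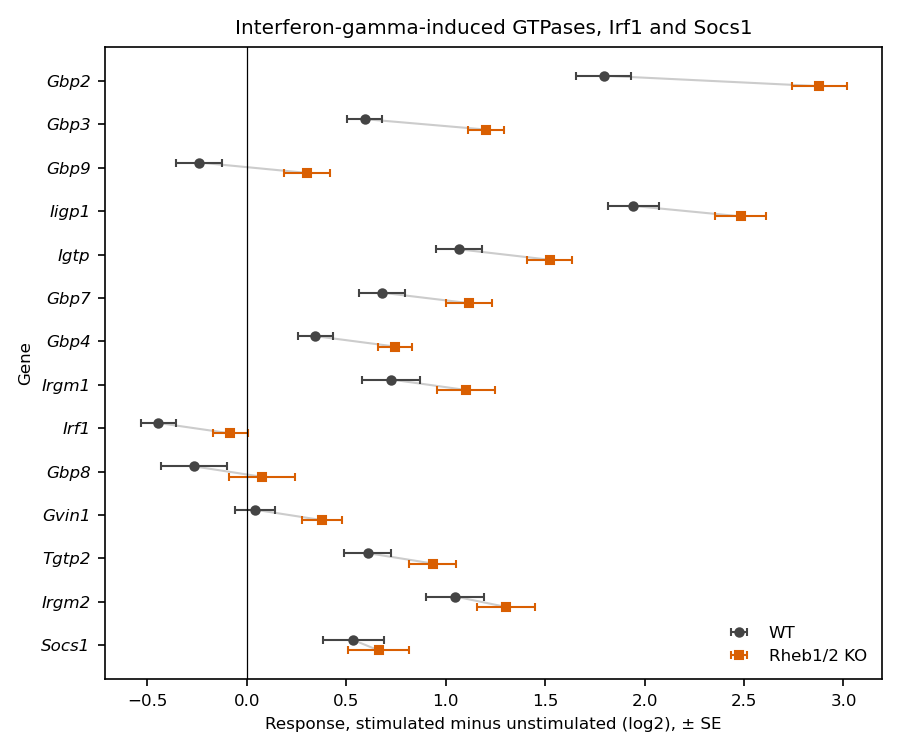
Response to stimulation (stimulated minus unstimulated, log2) of the 14 listed genes in WT (grey circles) and Rheb1/2 KO Tregs (orange squares), with the standard error of the fit, ordered by the difference. Every KO point lies to the right of its WT point, from Socs1 with a difference of 0.13 to Gbp2 with 1.08.

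Type I interferon response genes, which encode antiviral proteins, did not share that direction. Of 30 members, 12 lay above 0, against 45.0% of all genes, and the median was -0.05. At p below 0.05, 0 had a higher response (2.56% of all genes) and 2 a lower one (3.63%). These were Rsad2, which encodes viperin (-0.56 ± 0.21), and Herc6, an ISG15 ligase (-0.45 ± 0.18). Rsad2 was below the negative control median on every array of 3 groups, all but unstimulated KO. The list as a whole had a median response of -0.48 in WT and -0.65 in KO.

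Several genes that report recent T cell receptor signals had a less negative or a larger response in KO. Of 31 T cell receptor induced genes, 6 had p below 0.05 with a higher response (2.56% of all genes) and 0 with a lower one (3.63%). Above 0 lay 22 of them (45.0% of all genes), and the median was 0.17. The count of 6 was 1 in the fit of all 20 arrays. Cd83, an activation marker, had a difference of 0.62 ± 0.16, Irf8, a transcription factor, 0.48 ± 0.19, Irf4, which effector Tregs need, 0.37 ± 0.17, and Tagap, a GTPase activator, 0.27 ± 0.12. Cd69, the early activation marker that holds cells in tissue, had 12.56, 12.47 and 12.52 in unstimulated WT, 11.58, 11.52 and 11.63 in stimulated WT, 12.58, 12.51 and 12.53 in unstimulated KO and 12.01, 12.03 and 12.04 in stimulated KO arrays. The unstimulated groups overlapped and the stimulated groups were apart, with responses of -0.94 in WT and -0.52 in KO and a difference of 0.42 ± 0.12 (adjusted p = 0.642).

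Most immediate early genes fell with stimulation in both genotypes. This list also holds genes that tissue dissociation induces. Of its 32 members, 21 fell in WT and 18 in KO, against 4.89% and 5.19% of all genes. The median response was -0.64 in WT and -0.43 in KO. In the difference of responses, 5 members had p below 0.05 above 0 and 3 below 0, against 2.56% and 3.63% of all genes. The median difference was 0.10. Nr4a2, an orphan nuclear receptor, had 11.76, 11.61 and 11.65 in unstimulated WT, 10.79, 10.68 and 10.52 in stimulated WT, 11.59, 11.81 and 11.88 in unstimulated KO and 11.34, 11.59 and 11.28 in stimulated KO arrays. Its stimulated KO arrays stayed above the stimulated WT arrays, and the difference was 0.65 ± 0.16 (adjusted p = 0.539). Fosb, a subunit of AP-1, fell in both, with responses of -3.55 in WT and -2.96 in KO and a difference of 0.59 ± 0.16. Dusp2, a MAP kinase phosphatase, had a more negative response in KO, with a difference of -0.58 ± 0.15.

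Core Treg genes had a median difference of 0.16, and 16 of 18 lay above 0, against 45.0% of all genes. Of these 18, 4 had p below 0.05 with a higher response (2.56% of all genes) and 0 with a lower one (3.63%), and the count was 1 in the fit of all 20 arrays. Over this list the KO minus WT difference had a median of -0.25 without stimulation and -0.10 with it. The means over the list were 10.90 in unstimulated WT, 11.03 in stimulated WT, 10.65 in unstimulated KO and 11.02 in stimulated KO arrays. Itgae encodes the CD103 integrin chain, which binds E-cadherin on epithelia. Its signal was 9.48, 9.13 and 9.82 in unstimulated WT, 7.46, 7.55 and 7.14 in stimulated WT, 8.69, 9.13 and 9.29 in unstimulated KO and 8.30, 8.39 and 8.02 in stimulated KO arrays. Both groups lost signal and the WT arrays lost more, with responses of -2.09 in WT (adjusted p = 2.32e-05) and -0.80 in KO (adjusted p = 0.0158) and a difference of 1.30 ± 0.27 (adjusted p = 0.304).

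The other core members past p below 0.05 were Socs2, a suppressor of cytokine signalling (0.58 ± 0.18), Nt5e, the CD73 ectonucleotidase that makes adenosine (0.38 ± 0.14), and Lrrc32, the GARP docking receptor for TGF-beta (0.35 ± 0.16). Socs2 and Nt5e rose in both genotypes and were lower in unstimulated KO than WT arrays, by -0.91 (adjusted p = 0.00693) and -0.71 (adjusted p = 0.00693). Il2ra (CD25), Ctla4 and Myc had differences of 0.19 ± 0.26, 0.22 ± 0.13 and 0.17 ± 0.14, with adjusted p from 0.898 to 0.966, and their 95% intervals reach from -0.36 to 0.74, -0.06 to 0.50 and -0.13 to 0.46. Among 31 effector Treg genes, 17 lay above 0 and 5 had a higher response at p below 0.05, against 45.0% and 2.56% of all genes. One of these was Tbx21, which encodes T-bet (7.84, 7.85 and 7.99 in unstimulated WT, 9.11, 8.69 and 8.86 in stimulated WT, 7.53, 7.53 and 7.54 in unstimulated KO, 9.01, 9.32 and 9.15 in stimulated KO; difference 0.64 ± 0.17, adjusted p = 0.613).

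Markers of conventional CD4 T cells, the other cells a CD4 and CD25 gate can hold, had a median difference of 0.30 over 8 genes. Of these 8, 6 lay above 0 and 2 had a higher response at p below 0.05, Ifng and Dapl1. Dapl1 fell in both genotypes, by -1.10 in WT and -0.57 in KO, so its higher response was a smaller fall. Its signal was lower in KO than WT arrays without stimulation (-0.94, adjusted p = 0.00693) and with it (-0.42, adjusted p = 0.282; limma). Over all genes 45.0% lay above 0 and 2.56% had a higher response at that threshold. The part of conventional CD4 T cells in the results on cytokines, chemokines and GTPases was not tested. Of 22 resting T cell genes, 11 lay above 0, and the median response was -0.54 in WT and -0.51 in KO.

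On the other side, 2 genes that rose strongly in WT had a smaller response in KO. Fam110c encodes a centrosome-associated protein. It had 6.40, 6.70 and 6.86 in unstimulated WT, 8.52, 8.70 and 8.25 in stimulated WT, 6.15, 6.16 and 6.21 in unstimulated KO and 6.64, 6.72 and 6.91 in stimulated KO arrays. Stimulated WT arrays stood alone above all others, and every array of the other groups lay below its own negative control median. The response was 1.83 in WT (adjusted p = 5.87e-06) and 0.59 in KO (adjusted p = 0.0146), so that the KO value and the difference of -1.25 ± 0.19 (adjusted p = 0.21) rest on signals at background.

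Castor2 encodes a relative of the arginine sensor Castor1 and belongs to the amino acid branch upstream of mTORC1. It had 8.20, 7.86 and 8.36 in unstimulated WT, 9.83, 10.07 and 9.64 in stimulated WT, 7.84, 8.03 and 7.85 in unstimulated KO and 8.67, 8.61 and 8.57 in stimulated KO arrays. It rose by 1.71 in WT and by 0.71 in KO, with a difference of -0.998 ± 0.19 (adjusted p = 0.243), and stimulated KO arrays were below stimulated WT arrays by 1.23 (difference -1.23, adjusted p = 0.00191).

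The list of 39 mTORC1 pathway genes had a median of -0.04, with 15 above 0, against 45.0% of all genes. At p below 0.05, 4 had a lower response (3.63% of all genes) and 1 a higher one (2.56%). Besides Castor2 the lower ones were Eif4ebp1, the translation repressor that mTORC1 phosphorylates, Rptor, the scaffold subunit of mTORC1, and Deptor, an inhibitor of mTOR that lay at the level of the negative controls. Eif4ebp1 had 7.71, 7.51 and 7.89 in unstimulated WT, 8.38, 8.69 and 8.28 in stimulated WT, 8.17, 8.05 and 8.13 in unstimulated KO and 8.35, 8.40 and 8.35 in stimulated KO arrays. WT arrays started lower and ended at about the KO level, and the difference was -0.49 ± 0.17 (adjusted p = 0.713). Rptor had a difference of -0.37 ± 0.15, and Mtor, the kinase itself, of 0.54 ± 0.21 with a lower signal in unstimulated KO arrays (-0.76, adjusted p = 0.0421).

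Sterol synthesis genes are targets of the transcription factor SREBP2. Of 19 members, 16 lay below 0 and 3 above it, against 10719 of all 19505 genes below 0, and the median was -0.17. At p below 0.05, 2 had a lower response, where 3.63% of all genes had one. Over this list the KO minus WT difference had a median of -0.29 already without stimulation and -0.49 with it. The median response was 0.40 in WT and 0.19 in KO. Nsdhl encodes a demethylating dehydrogenase of cholesterol synthesis. Its signals were 9.92, 9.69 and 9.94 in unstimulated WT, 10.15, 10.24 and 10.47 in stimulated WT, 9.86, 9.90 and 10.05 in unstimulated KO and 9.42, 9.64 and 9.42 in stimulated KO arrays. All stimulated WT arrays were above the unstimulated arrays and all stimulated KO arrays below them. The response was 0.44 in WT (adjusted p = 0.0293) and -0.44 in KO (adjusted p = 0.0256), with a difference of -0.88 ± 0.16 (adjusted p = 0.243).

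Pmvk, the phosphomevalonate kinase, was the other sterol gene at p below 0.05 (-0.41). Hmgcs1, which makes HMG-CoA, had 7.43, 8.69 and 8.58 in unstimulated WT, 9.29, 9.43 and 9.07 in stimulated WT, 8.47, 7.92 and 8.13 in unstimulated KO and 8.38, 8.27 and 8.64 in stimulated KO arrays. In Hmgcs1, 1 unstimulated WT array lay over 1 log2 below its replicates, and the difference was -0.77 ± 0.38 (adjusted p = 0.83). Without that array, replicate 1, it was -0.37. Sqle, the squalene epoxidase, had -0.47 ± 0.24, Msmo1 -0.25 ± 0.25 and Fdps -0.14 ± 0.16. Leaving out 1 array moved Msmo1 between -0.45 (without unstimulated WT replicate 3) and -0.03 (without replicate 2), and Fdps between -0.23 and -0.07 for the same arrays. Fatty acid synthesis genes split evenly, 7 of 14 above 0, and Fasn, the fatty acid synthase, had a response of 0.58 in WT and 0.27 in KO (difference -0.31 ± 0.13).

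Among genes of cell division more members lay below 0 than above it. Among 35 mitosis genes, 24 lay below 0, 4 had p below 0.05 with a lower response and 0 with a higher one, and the median response was 0.24 in WT and 0.06 in KO. Over all genes, 10719 of 19505 lay below 0 and 3.63% had a lower response at that threshold. For the mitosis list the KO minus WT difference had a median of -0.28 already without stimulation and -0.42 with it. Plk1, a mitotic kinase, had 7.98, 7.61 and 8.37 in unstimulated WT, 8.71, 9.02 and 8.67 in stimulated WT, 7.66, 7.76 and 8.08 in unstimulated KO and 7.96, 7.89 and 7.72 in stimulated KO arrays. It rose in WT (0.81, adjusted p = 0.0102), had a response of 0.02 in KO (adjusted p = 0.973), and differed by -0.79 ± 0.25 (adjusted p = 0.686). Aurkb, the kinase of the chromosomal passenger complex, and Kif2c, a microtubule depolymerase, had differences of -0.59 and -0.51, Kif2c being below the negative control median on all 12 arrays. The proliferation marker Mki67 had -0.28 ± 0.26 (adjusted p = 0.949), and -0.02 without unstimulated WT replicate 2. Of 38 replication genes, 26 lay below 0, with Ccne2 (cyclin E2) at -0.67 and E2f7, a repressor of E2F targets, at -0.50, while Prim1, a primase subunit, was at 0.82.

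Of 38 ribosome biogenesis genes, 29 lay below 0, and 2 had a lower response at p below 0.05, near the 3.63% of all genes; the median response was 0.21 in WT and 0.12 in KO. The amino acid stress genes controlled by ATF4 split evenly, 11 of 22 on each side. Slc7a3, a cationic amino acid transporter in that list, had 7.77, 7.29 and 7.99 in unstimulated WT, 7.55, 7.22 and 8.57 in stimulated WT, 7.37, 6.91 and 7.07 in unstimulated KO and 8.85, 8.56 and 9.17 in stimulated KO arrays. It rose in KO (1.74, adjusted p = 0.00155) with a WT response of 0.10, and 1 stimulated WT array reached the lowest KO value. Asns, the asparagine synthetase, ran the other way, with 0.74 in WT and 0.18 in KO (difference -0.56 ± 0.25). Slc7a11, the cystine transporter, had 0.65 ± 0.27 and was at background in all groups but stimulated KO. Of 26 glycolysis genes 1 and of 31 respiratory chain genes 1 had a lower response at p below 0.05, and 0 a higher one. Over all genes 3.63% had a lower and 2.56% a higher response at that threshold.

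Several genes of myeloid cells had lower responses in KO together with a high unstimulated KO signal. Pik3ap1 encodes BCAP, an adaptor between receptors and PI3 kinase in B and myeloid cells. It had 7.35, 7.39 and 7.36 in unstimulated WT, 7.19, 7.16 and 7.29 in stimulated WT, 8.70, 8.37 and 8.30 in unstimulated KO and 7.12, 7.20 and 6.96 in stimulated KO arrays. Only the unstimulated KO arrays stood apart, by 1.09 above unstimulated WT (adjusted p = 0.00157), and the difference of responses was -1.21 ± 0.16 (adjusted p = 0.0704; 95% interval -1.56 to -0.87). C1qa, a complement gene of macrophages, had 7.32, 7.55 and 7.88 in unstimulated WT, 7.16, 6.79 and 6.31 in stimulated WT, 8.82, 8.68 and 8.66 in unstimulated KO and 6.61, 6.39 and 6.26 in stimulated KO arrays. Its unstimulated KO arrays were 1.14 above WT (adjusted p = 0.0228), and the difference was -1.48 ± 0.27 (adjusted p = 0.243).

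Rasgrp4, a Ras activator of mast and myeloid cells, and Adgre4, an adhesion receptor of macrophages, followed the same pattern, at -1.40 ± 0.25 and -1.07 ± 0.22. All 12 macrophage markers lay below 0, with a median of -0.34 and 5 at p below 0.05 (3.63% of all genes), and the means over the list show where this arises. They were 7.32, 7.29 and 7.22 in unstimulated WT, 6.40, 6.48 and 6.56 in stimulated WT, 7.83, 7.70 and 7.71 in unstimulated KO and 6.44, 6.45 and 6.47 in stimulated KO arrays. Stimulated arrays of both genotypes were alike and low, and unstimulated KO arrays were the highest. Csf1r, the receptor of macrophage growth factor, had -0.79 ± 0.27, Ms4a7 -0.91 ± 0.23, the mannose receptor Mrc1 -0.73 ± 0.27 and C1qb -0.60 ± 0.21. In stimulated KO arrays C1qa, Csf1r, Ms4a7, Mrc1 and Adgre4 were all below the negative control median, so their KO responses end at background. Mrc1 and Adgre4 were also below it on every stimulated WT array, and C1qa and Csf1r on some of them. The WT responses of Mrc1, Adgre4, C1qa and Csf1r thus also end at or near background.

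Antigen presentation markers of dendritic cells behaved alike, with 11 of 13 below 0 and H2-Ab1 (-0.59) and H2-Aa (-0.47) at p below 0.05, while the dendritic gene Itgax was near or below the negative control median. B cell markers had 2 of 9 lower, CD8 T cell markers 1 of 8 and NK cell markers 1 of 11 at that threshold, which 3.63% of all genes passed with a lower response. In bulk RNA, fewer cells of a type and less RNA per cell cannot be told apart. The part of macrophage RNA in the lower responses of genes outside this list was not tested.

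Stimulation called 3 genes in opposite directions in the 2 genotypes, with WT up and KO down in each. Besides Nsdhl these were Tmem26, a membrane protein, and Cldn10, a claudin of tight junctions. Tmem26 had 8.23, 8.91 and 8.53 in unstimulated WT, 9.38, 8.98 and 9.04 in stimulated WT, 9.05, 8.87 and 9.13 in unstimulated KO and 8.16, 8.08 and 8.41 in stimulated KO arrays. WT arrays ended high and KO arrays low, with responses of 0.58 (adjusted p = 0.0452) and -0.80 (adjusted p = 0.0066) and a difference of -1.38 ± 0.23 (adjusted p = 0.21).

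Cldn10 differed before stimulation instead. It had 7.43, 7.33 and 7.60 in unstimulated WT, 7.75, 8.28 and 7.92 in stimulated WT, 8.30, 8.41 and 8.53 in unstimulated KO and 7.87, 7.92 and 8.07 in stimulated KO arrays. The stimulated groups overlapped, unstimulated KO arrays were 0.96 above WT (adjusted p = 0.00693), and the difference of responses was -0.996 ± 0.19 (adjusted p = 0.243).

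Of the 24 genes of lowest p with non-overlapping responses, those not yet described were a mixed group. Higher responses in KO were seen for Stap1, a signalling adaptor (0.70), Gad1, which makes GABA (0.88), Ermn (1.24), Ccnh, a cyclin of the transcription kinase complex TFIIH (0.58), Eea1, an early endosome tether (0.58), and Lrrtm4 (0.72). Gad1 had 7.18, 7.21 and 7.07 in unstimulated WT, 7.86, 8.02 and 8.00 in stimulated WT, 7.09, 7.14 and 6.75 in unstimulated KO and 8.89, 8.57 and 8.59 in stimulated KO arrays, so that stimulated KO arrays were above all others. Ermn was at the negative control level in all groups but the stimulated KO arrays, and Lrrtm4 in all groups. Lower responses were seen for Slc7a7, a light chain of amino acid transport (-0.61), Trub2, a mitochondrial pseudouridine synthase (-0.74), and Clec4a4, a lectin of dendritic cells at negative control level (-0.83).

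**Figure D4:**
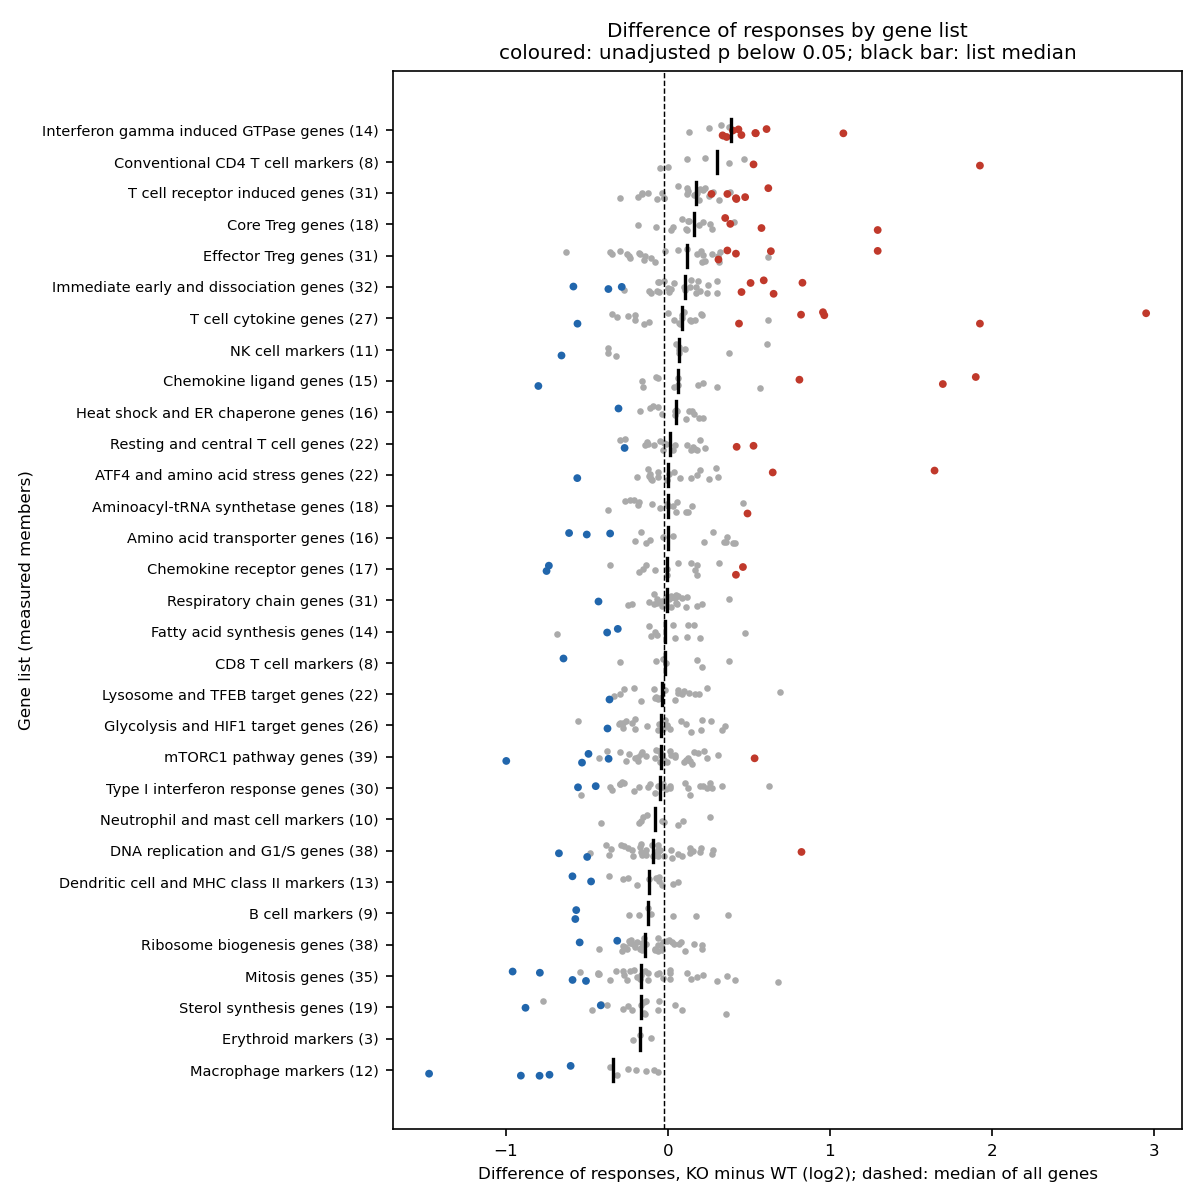
Difference of responses (KO minus WT, log2) of every measured member of the 31 gene lists, one point per gene, red or blue where the unadjusted p was below 0.05, with the list median as a black bar and the median of all genes as a dashed line. The interferon gamma GTPase list lies highest with a median of 0.39 and the macrophage markers lowest with -0.34; no gene had an adjusted p below 0.05.

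Genes chosen for their response on other arrays had close median responses in both genotypes. The 200 genes with the largest rise in the WT Tregs of the Rag experiment had median responses of 0.45 in WT and 0.41 in Rheb1/2 KO Tregs. The difference was above 0 for 100 of the 200, with 19 higher and 14 lower at p below 0.05, where 2.56% and 3.63% of all genes were. Counts in both directions were thus above the share of all genes, around a median difference of 0.00. For the 200 genes with the largest fall, the median responses were -0.81 and -0.82, with 98 above 0 and 10 in each direction at p below 0.05.

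The same difference of responses was formed in the Rag experiment, RagAB KO minus WT, whose arrays are independent of those used above but number only 2 a group. It called 0 genes (0.0%), with 1202 at p below 0.05 (6.16%). A direct test of RagAB against Rheb loss also called 0 genes (0.0%), with 1585 at p below 0.05 (8.13%). Of the 499 genes with a higher response in Rheb1/2 KO, 350 had a difference above 0 in the Rag experiment, where 43.9% of all genes did. For the 708 with a lower response, 413 lay below 0, where 56.1% of all genes did. Across all genes, as a description, both differences correlated with r = 0.16. The Rag arrays were less alike in level than the Rheb arrays. Their medians lay between 7.18 and 7.55, and the 99th percentile of gene signals between 11.34 and 12.15. In the Rheb arrays these lay between 7.67 and 7.77 and between 11.99 and 12.07. The part of such level differences in the Rag values, above all for lists of bright genes, was not tested.

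All 14 genes of the interferon gamma GTPase list also lay above 0 in the Rag experiment, with a median of 1.03. Gbp2 had 1.37 there, Iigp1 1.42 and Igtp 1.33. Other lists lay high there too, with 17 of 18 core Treg genes (median 0.53) and 19 of 22 resting T cell genes (median 0.65) above 0. Values of Il3 (1.05), Csf2 (0.60), Ifng (3.28) and Il4 (1.40) were above 0 as well, and Ccl20 (-1.69), Fam110c (-0.82) and Tmem26 (-0.75) below it. Castor2 (0.09), Pik3ap1 (0.12), Cxcl9 (-0.20) and Nsdhl (0.90) did not keep the sign they had with Rheb loss. The test of RagAB against Rheb loss gave adjusted p between 0.547 and 0.811 for Castor2, Pik3ap1, Nsdhl, Fam110c and Gbp2. The type I interferon genes lay above 0 in 26 of 30 cases in the Rag experiment and in 12 of 30 with Rheb loss. Herc6 is one of them, with 1.48 against -0.45 (adjusted p of the difference = 0.32).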

How the data were processed

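Gene expression was measured on Clariom S mouse arrays, 1 per sample. The authors deposited log2 signals per probe set, computed with RMA, a method that corrects background, quantile-normalizes arrays and summarises probes, in Affymetrix Expression Console 1.1, per the submitters' processing notes; joint normalization of the experiments is not stated. The deposited log2 values were used without rescaling. Of 28846 probe sets, 19572 carried 1 gene in the platform annotation, and for 55 genes with several the probe set of highest mean was kept, leaving 19505 genes, all tested.

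Groups came from the sample titles. The 12 arrays were fitted with group means in limma 3.58.1 (R 4.3.3; 8 residual degrees of freedom), and contrasts gave both responses and their difference. Tests were two-sided, with p-values adjusted over all genes by Benjamini-Hochberg and called below 0.05. Errors are standard errors unless SD is named. The RagAB difference came from its own 8 arrays, and the test of RagAB against Rheb loss from all 20. The number of arrays limits the precision.

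The 31 gene lists (672 genes written, 614 measured) and the members named were chosen with earlier results of these data known. The naming rule took the targeted genes, in each direction the 12 genes of lowest p with non-overlapping responses, up to 3 genes of each list at p below 0.05, genes called in opposite directions, and Il2ra, Ctla4, Myc and Mki67. The other GTPase list members, Il4, Il10, Il21, Lif, Il17f, Hmgcs1, Sqle, Fdps, Msmo1, C1qb, Mrc1, Mtor, Rptor, Tagap, Irf4, Lrrc32 and Gm8369 were named after their values were seen. Scripts were tested on simulated data. Alternatives were a second quantile normalization, median centring, a filter on dim genes, a trended and robust prior, all 20 arrays in the fit, array weights, a replicate block, the mean of probe sets and each array left out.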

Additional observations from a re-analysis of the deposited data

Results flagged for a closer look

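For 3 genes every stimulated WT array lay above every unstimulated WT array, and every stimulated KO array below every unstimulated KO array. Both responses were called for each of them. Tmem26 had a difference of responses of -1.38 (adjusted p = 0.21), Cldn10 of -0.996 (adjusted p = 0.243) and Nsdhl of -0.88 (adjusted p = 0.243; limma). The test of the difference itself did not reach an adjusted p below 0.05 for any of them.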

How the results depend on the processing

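With 3 arrays a group the difference of responses was called for 0 genes, and differences beyond 1 log2 were among those not called. It called 0 genes after a second quantile normalization and with the mean of probe sets, 1 after median centring (Pik3ap1), 1 after leaving out the 40% of genes with the lowest signal (Pik3ap1), 7 with a trended and robust prior, 1 with all 20 arrays in the fit (Il3) and 2 with array weights (Pik3ap1 and Fam110c). Leaving out each array in turn gave 0 to 0 genes, with a lowest adjusted p between 0.0557 and 0.307. The count at unadjusted p below 0.05 was 519 with all 20 arrays and 1030 to 1358 with 1 array left out. Quantile normalization gave 631 higher and 621 lower, against 499 and 708. The WT response called 806 genes and the KO response 920 with all 20 arrays, and 1263 to 1802 and 1356 to 2011 with 1 array left out. The median of all genes moved by less than 0.1 under each scaling.

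Arrays of equal number did not deviate together (correlations from -0.2001 to 0.178 over 18 pairs), so the numbers give no pairing. With the replicate block the difference of responses was called for 0 genes, 1097 had p below 0.05, the WT response called 1596 genes and the KO response 1685. The block changed no call of a named gene, and the RagAB against Rheb test called 0 genes with it.

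Of 111 named genes (Gm8369 not among them), 108 kept their direction in every setting run. The other 3 were close to 0 and changed sign when 1 array was left out, with values from -0.23 to 0.16 for Rheb, -0.0044 to 0.46 for Il2ra and -0.065 to 0.26 for Socs1. In 11 of 2091 gene settings a gene of these 111 passed the threshold. The genes were Pik3ap1, Fam110c, Cd69, Gbp2, Gbp3, Tmem26 and Il3.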
